A study of Mus musculus with 9 samples.

Results

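The comparison described here is the step from day 4 to day 8 in embryoid bodies made from Hnrnpll knockout mouse embryonic stem cells. Its members are 4 of the 9 libraries of the study. They come from 2 knockout lines, G6 and H8 in the labels, each collected at day 4 and at day 8 and paired by line. Of the other 5 libraries, 2 are the same knockout lines at day 0, before embryoid bodies were formed, and 3 are wild type, 1 each at day 0, day 4 and day 8. PolyA+ RNA was sequenced from all of them. Stem cells of both genotypes were kept in serum-containing medium to which leukemia inhibitory factor (LIF) was added, and embryoid bodies were made in hanging drops; the knockout genotype is given as Hnrnpll-/-. How the knockout was made, which part of the gene it removes, whether the lines derive from the wild-type cells sequenced and whether a library pools several bodies are not given in the sources used here.

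Embryoid bodies are aggregates in which stem cells, once LIF is withdrawn, leave the naive pluripotent state and form derivatives of the germ layers. Naive pluripotency is held by transcription factors such as NANOG, ESRRB, TFCP2L1, TBX3 and PRDM14; cells that leave it pass through a formative or primed state marked by FGF5, OTX2 and DNMT3B and then, in mesoderm-forming bodies, through a primitive streak-like state marked by T (Brachyury) and MIXL1. POU5F1 (OCT4) is expressed across the naive and primed states and is lost as cells differentiate. HNRNPLL is an RNA-binding protein related to HNRNPL and best known for regulating alternative splicing in lymphocytes.

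The 4 libraries compared hold 126467666 (G6) and 137745816 (H8) counts at day 4 and 154674240 (G6) and 184952442 (H8) counts at day 8. The remaining libraries hold 54218051 to 135562895 counts, and the day 0 knockout libraries are the shallowest. Those day 0 libraries also stand apart in the first principal component of all libraries, which carries 40.5% of the variance. Among counts of at most 40, the share that are multiples of 4 was 43.5% and 42.6% there and 30.5% to 33.2% in the others, so 1 count is not 1 independent fragment. Because the day 0 libraries enter the estimate of the spread, the main counts of called genes below are also given without them.

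The targeted gene was still read in every knockout library. Hnrnpll (chr17:80029487-80062334, minus strand, mm10) stood at 61.2 (G6) and 38.6 (H8) TPM (transcript abundance scaled to gene length and to the library) at day 4, and at 56.5 and 43.5 TPM at day 8. The wild type had 101 TPM at day 4 and 112 at day 8, above all 4 knockout values. Between the 2 days the knockout difference was 0.03 ± 0.18 on the log2 scale (SE, 2 against 2 libraries; adjusted p = 0.977 by edgeR), and values per gene cannot show which part of the transcript remained. Its relative Hnrnpl stood at 355 and 359 TPM at day 4 and at 357 and 316 at day 8.

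From day 4 to day 8 the knockout bodies gained messages of naive pluripotency and lost messages of glycolysis and the hypoxia response. Prdm14, Tbx3, Zfp42, Tfcp2l1, Esrrb and Nanog rose, while Adm, Ankrd37, Aldoc and Bnip3 fell. Keratin genes Krt8 and Krt18, the yolk sac gene Afp and the transcription factor gene Hand1 rose as well. In all, 150 of 24794 genes tested passed an adjusted p of 0.05 (0.605%), 81 of them higher at day 8 (0.327%) and 69 lower (0.278%). The test was edgeR's quasi-likelihood F test with a term for the knockout line, and p-values were adjusted by the Benjamini-Hochberg method over all genes tested. Each day has 2 knockout libraries, and nothing says that they came from separate experiments. With the line term, the p-values rest on how the difference between the lines varied over days 0, 4 and 8. That spread may be technical.

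Among the 150 genes the median size of the difference was 2.13 on the log2 scale and the smallest 1.06; both lines moved in the same direction for each of the 150. Protein-coding genes made up 80 of the 81 higher and 67 of the 69 lower genes. Across 11930 genes with at least 5 CPM (counts scaled to library size) on average, the G6 and H8 steps had a Pearson correlation of 0.753 and a Spearman correlation of 0.678, a description across genes, which are not independent replicates. Their signs were the same for 73.6% of those genes. Without the day 0 knockout libraries 1520 genes passed (6.26%; 743 higher, 3.06%, and 777 lower, 3.2%), and the 150 genes were all among them with the same direction. Without the line term 77 genes passed, of which 73 were among the 150. The count was 1 without the day 4 G6 library and 0 without the day 4 H8 library, 70 without the day 8 G6 library and 4 without the day 8 H8 library.

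**Figure D1:**
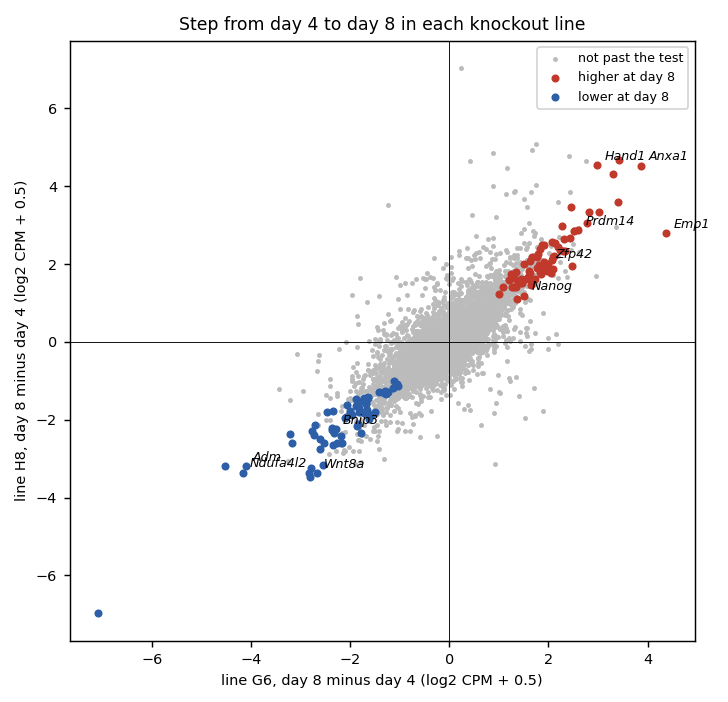
Each point is 1 of 11930 genes, placed by its day 8 minus day 4 difference in line G6 (horizontal axis) and line H8 (vertical axis), in log2(CPM + 0.5). Red points (higher) and blue points (lower) passed the edgeR test and all lie in the quadrants where both lines moved the same way; the lowest blue point is the predicted gene Gm45717, at -7.08 and -6.98, which overlaps Ifitm2, and grey points did not pass.

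Of 20 genes of the naive pluripotency list, 6 passed the test as higher at day 8 and none as lower, against 0.327% of all genes tested. The median difference of the list was 1.56 on the log2 scale, against 0.00602 over all genes, and each of the 20 differences was above 0. Without the day 0 knockout libraries 18 of the 20 passed as higher, against 3.06% of all genes. Without the line term 2 passed as higher, against 41 of all 24794 genes. The list's median step was 1.58 in G6 and 1.68 in H8, against 0.31 in the wild type. The list was chosen with the result known, so its direction is not independent evidence.

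The promoters of a few of these genes are printed to show part of a motif of the POU family, to which POU5F1 belongs. Whether POU5F1 acts on these genes was not tested. ATGCAAA, part of the octamer motif of the POU family, was searched on both strands in the 250 bases before each start in RefSeq (GRCm38.p6). It was in the windows of 2 of the 4 naive genes past the test that have a RefSeq promoter, Nanog and Zfp42, in none of 8 list genes not past the test, and in 4.65% of all 27025 genes with a promoter. A match is a description of the letters, not a binding site. The windows below run along the gene, with the motif in capitals, read on the opposite strand as TTTGCAT.
Nanog, chr6:122707367-122707466, plus strand: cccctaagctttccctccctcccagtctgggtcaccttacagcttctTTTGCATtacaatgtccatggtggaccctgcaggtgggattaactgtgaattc
Zfp42, chr8:43307142-43307241, minus strand: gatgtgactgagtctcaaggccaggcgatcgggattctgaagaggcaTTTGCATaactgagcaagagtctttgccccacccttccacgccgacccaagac

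Zfp42 (Rex1), a zinc finger gene used as a reporter of the naive state, stood at 126 (G6) and 123 (H8) TPM at day 4 and at 484 and 511 TPM at day 8. It rose by 2.0 ± 0.13 on the log2 scale (adjusted p = 0.0302, edgeR). Day 8 values lay below the day 0 knockout levels of 717 and 825 TPM, and the wild type went from 48.3 to 73.8 TPM. Esrrb, an orphan nuclear receptor of the naive network, stood at 71.0 and 71.2 TPM at day 4 and at 229 and 219 at day 8. Its rise was 1.56 ± 0.13 (adjusted p = 0.0389, edgeR), and the wild type held 22.9 and 20.9 TPM. In both genes the 2 lines were close together at each day, and the days did not overlap.

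Prdm14, which codes for a repressor of FGF signalling and of DNA methyltransferase genes, had the largest rise of the list. It stood at 3.04 and 2.04 TPM at day 4 and at 19.7 and 17.5 TPM at day 8, a difference of 2.92 ± 0.28 on the log2 scale (adjusted p = 0.0418, edgeR), while the wild type went from 3.06 to 2.67. Tbx3, a T-box factor that sustains self-renewal, went from 14.2 and 15.0 TPM to 66.1 and 93.9 TPM. In the wild type Tbx3 went from 19.1 to 46.1 TPM, so this gene was higher at day 8 in all lines. Tfcp2l1, a LIF-responsive factor of the naive network, went from 22.4 and 21.1 TPM to 80.8 and 87.8 TPM, beside 9.55 and 31.5 TPM in the wild type.

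Nanog, the homeobox gene at the centre of the network, stood at 144 (G6) and 214 (H8) TPM at day 4 and at 398 and 496 TPM at day 8. Its rise of 1.35 ± 0.16 on the log2 scale was just past the threshold (adjusted p = 0.0491, edgeR). The wild type went the other way, from 216 to 59.8 TPM, so that at day 4 it was level with H8 and at day 8 it lay below both knockout lines.

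The other 14 members of the list did not pass the test, and their differences ran from 0.53 to 2.45. Klf4, a Krüppel-like factor gene and reprogramming factor, stood at 19.2 and 18.9 TPM at day 4 and at 68.0 and 108 TPM at day 8 (2.15 ± 0.33, adjusted p = 0.0713, edgeR). Its day 0 knockout levels of 289 and 700 TPM differed widely between the lines. Dppa3 (Stella), expressed in naive and germ cells, had 2.10 and 5.33 TPM at day 4 and 13.8 and 26.3 at day 8. Fgf4, the FGF ligand secreted by naive cells, had 70.6 and 45.2 TPM and then 131 and 124 TPM. Klf2 had 80.9 and 61.7 TPM and then 109 and 96.1 TPM, and Klf5 148 and 76.6 TPM and then 213 and 119 TPM, each with a log2 difference under 0.6. Dppa5a, the most abundant member of the list, stood at 1616 and 2219 TPM at day 4 and at 4209 and 3820 at day 8; it is named for its level, after its values were seen.

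Pou5f1 stood at 1025 and 1161 TPM at day 4 and at 1088 and 1013 TPM at day 8 in the knockout. The knockout difference was -0.05 ± 0.14 on the log2 scale (adjusted p = 0.926, edgeR), with opposite signs in the 2 lines. In the wild type the level went from 1060 TPM, within the knockout range, to 178 TPM. Sox2, its partner on shared sites, had 255 and 221 TPM at day 4 and 415 and 350 TPM at day 8 (0.69 ± 0.14, adjusted p = 0.104, edgeR), beside 94.5 and 75.7 TPM in the wild type. Of 18 genes of the general pluripotency list, which these genes head, 0 passed in either direction, against 0.605% of all genes tested. The median difference was 0.14. Without the day 0 libraries 3 were higher and 2 lower, against 3.06% and 3.2% of all genes.

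**Figure D2:**
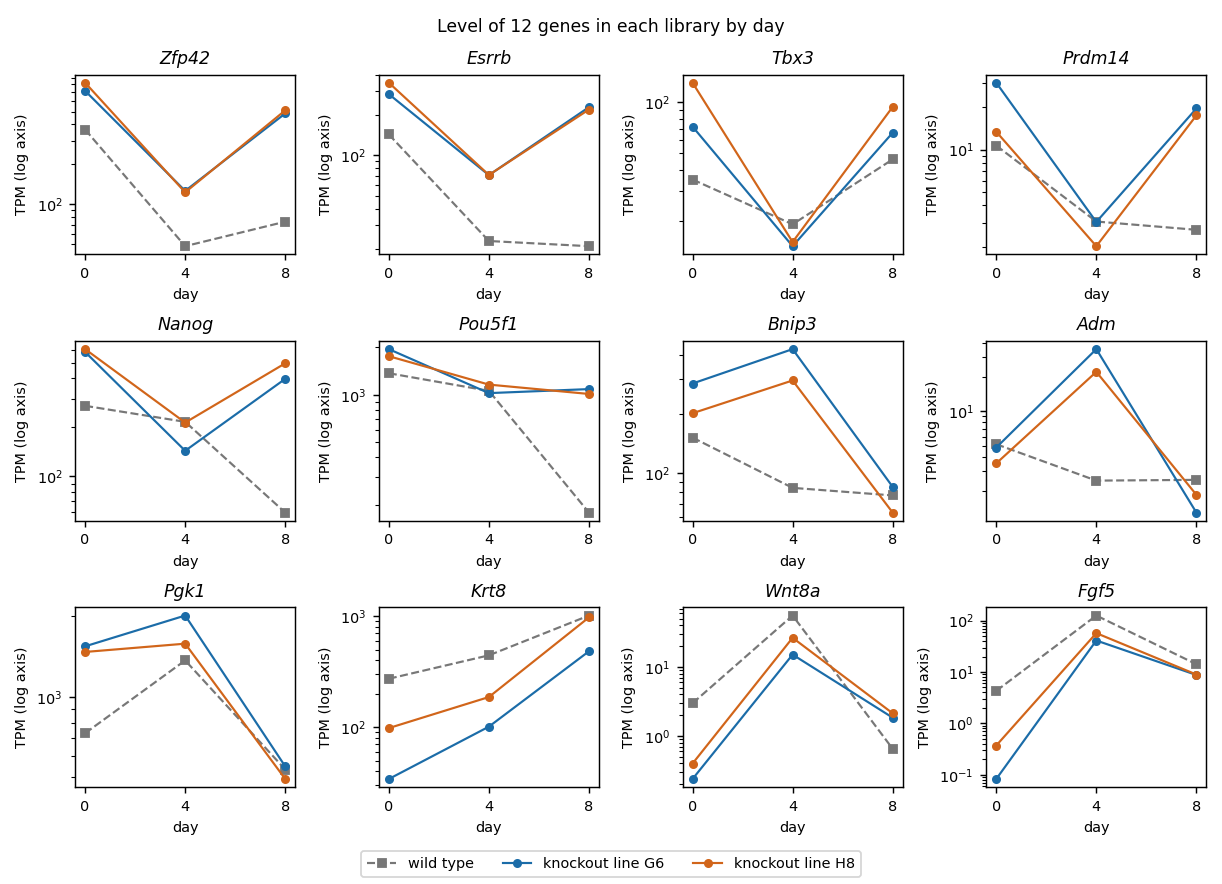
Level of 12 genes in TPM (log axis) against day, with 1 point per library; blue and orange lines are the knockout lines G6 and H8 and the dashed grey line the wild type. In Zfp42, Esrrb, Tbx3, Prdm14 and Nanog both knockout lines are higher at day 8 than at day 4; Bnip3, Adm, Pgk1 and Wnt8a are lower, Krt8 is higher, and Pou5f1 (1025 and 1161 TPM at day 4, 1088 and 1013 at day 8) and Fgf5 did not pass the test.

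Genes of the formative and primed epiblast did not pass: of 16 tested, 0 were higher and 0 lower, against 0.327% and 0.278% of all genes tested. The median difference was -0.48. Without the day 0 libraries 6 were lower and 0 higher, against 3.2% and 3.06% of all genes. Fgf5, an FGF ligand of the primed epiblast, stood at 41.1 and 57.3 TPM at day 4 and at 8.76 and 8.94 at day 8 (-2.57 ± 0.38, adjusted p = 0.0693, edgeR). In the wild type it went from 126 to 14.2 TPM. Dnmt3b, the de novo DNA methyltransferase gene of the primed state, stood at 269 and 227 TPM and then at 142 and 92.5 TPM (-1.10 ± 0.16, adjusted p = 0.0693, edgeR). Otx2 (153 and 90.8 TPM, then 115 and 52.1) and Pou3f1 (42.1 and 34.1 TPM, then 23.3 and 6.95) had overlapping or widely spread values in the 2 lines. In both Fgf5 and Dnmt3b the days did not overlap, although the test was not passed.

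The glycolysis and hypoxia list had the most members past the test. Under low oxygen the transcription factor HIF induces genes of glucose uptake and glycolysis, of mitochondrial clearance and of vessel growth; the enzymes that mark HIF for degradation, among them EGLN1, use oxygen. Of 30 members tested, 12 fell and 0 rose, against 0.278% of all genes tested that were lower. The list's median difference was -1.11 on the log2 scale, and 28 of the 30 were below 0. Without the day 0 knockout libraries 22 fell, against 3.2% of all genes. Without the line term 6 fell, against 36 of all 24794 genes. Its summed level was 20054 and 17854 TPM at day 4 and 8035 and 7644 TPM at day 8 in the knockout, and 13474 and 6862 TPM in the wild type. The median wild-type step was -0.67.

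ACGTG, the core of the hypoxia response element, was searched in the same way in the promoters of these genes. It was present in the 250-base windows of 7 of 11 genes past the test and of 10 of 17 genes of the list not past it, and in 18.5% of all 27025 genes with a promoter, so the share was alike in both parts of the list. Windows of 3 of the genes that fell are printed, with the motif in capitals; CACGT is the motif read on the opposite strand, and the CACGTG of Bnip3 holds it on both.
Bnip3, chr7:138909563-138909662, minus strand: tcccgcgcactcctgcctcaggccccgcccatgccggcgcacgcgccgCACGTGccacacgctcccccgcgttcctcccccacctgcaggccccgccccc
Egln1, chr8:124949271-124949370, minus strand: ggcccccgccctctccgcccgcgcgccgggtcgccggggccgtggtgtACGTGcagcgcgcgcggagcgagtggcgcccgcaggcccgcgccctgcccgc
Pgk1, chrX:106186902-106187001, plus strand: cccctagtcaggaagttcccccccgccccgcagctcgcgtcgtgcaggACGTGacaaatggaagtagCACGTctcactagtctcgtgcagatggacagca

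Bnip3, whose product recruits the autophagy machinery to mitochondria, stood at 428 (G6) and 296 (H8) TPM at day 4 and at 85.1 and 62.9 TPM at day 8. It fell by 2.28 ± 0.12 on the log2 scale (adjusted p = 0.024, edgeR). The wild type had 84.1 and 77.0 TPM, close to the knockout at day 8 and well below it at day 4. Adm (adrenomedullin, a vasodilator peptide) stood at 35.1 and 22.2 TPM at day 4 and at 1.29 and 1.85 TPM at day 8, a difference of -4.11 ± 0.38 (adjusted p = 0.0404, edgeR). Its day 4 knockout values were above every other library, since day 0 held 4.80 and 3.48 TPM and the wild type 2.46 to 5.13 TPM. Ankrd37 (42.4 and 30.2 TPM, then 5.48 and 5.71) and Aldoc, a brain-type aldolase gene (39.6 and 25.8 TPM, then 5.80 and 6.08), fell by 2.78 and by 2.49.

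The other 8 members that fell are named after their values were seen. Enzymes of glycolysis among them were Pgk1 (2008 and 1577 TPM, then 550 and 493), Pfkl (305 and 236 TPM, then 93.6 and 71.7), Gpi1 (1259 and 1042 TPM, then 513 and 376), Aldoa (2430 and 1818 TPM, then 1074 and 917) and Hk2 (160 and 126 TPM, then 75.9 and 60.9). For Pgk1, Pfkl and Aldoa the wild type was lower at day 8 by a similar step (-1.54, -1.76 and -1.16, against -1.77, -1.71 and -1.06 in the knockout). The remaining 3 were Egln1 (72.3 and 49.4 TPM, then 12.5 and 14.2), Ndrg1 (72.7 and 62.9 TPM, then 21.5 and 23.6) and Ddit4, an inhibitor of mTORC1 (412 and 739 TPM, then 92.1 and 194). Ldha, which reduces pyruvate to lactate, lay just outside the threshold at 2221 and 1885 TPM and then 600 and 409 TPM (adjusted p = 0.0519, edgeR).

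Not every hypoxia-linked gene followed. Vegfa, the endothelial growth factor gene, stood at 76.7 and 64.6 TPM at day 4 and at 57.7 and 86.9 TPM at day 8, with opposite signs in the 2 lines and a difference of -0.03 ± 0.21 (adjusted p = 0.98, edgeR). Hif1a itself had 69.3 and 65.5 TPM and then 95.6 and 67.5 TPM. Epas1, which codes for the related subunit HIF2A, rose by 1.95 ± 0.16 (8.48 and 3.61 TPM, then 34.5 and 13.0; adjusted p = 0.0389, edgeR). These 3 genes were chosen after their values were seen.

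Several of the largest falls outside the list are also known targets of hypoxia. Stc1 (stanniocalcin 1) had the largest fall among genes of at least 5 CPM that carry an ordinary gene name, from 9.42 and 3.02 TPM to 0.163 and 0.123 TPM (-5.19 ± 0.45, adjusted p = 0.0389, edgeR). Ndufa4l2, a mitochondrial protein gene, fell from 117 and 62.3 TPM to 5.38 and 5.34 TPM, by 4.00. Gbe1, the glycogen branching enzyme gene, fell by 2.98 and Bhlhe41, a circadian repressor gene, by 3.31. In the wild type Stc1 and Bhlhe41 were not lower at day 8 (0.679 then 1.57 TPM, and 2.31 then 2.74 TPM). Gbe1 was at 9.63 and then 10.2 TPM there, while Ndufa4l2 was lower at day 8 (14.2 then 1.55 TPM). Ero1l, an oxidase of the endoplasmic reticulum, Slc16a3, a lactate transporter, and Fam162a fell by 1.92, by 1.99 and by 1.77 and were named after their values were seen. In the wild type Slc16a3 (140 then 37.8 TPM) and Fam162a (305 then 155 TPM) were lower at day 8, and Ero1l (50.6 then 90.0 TPM) was not.

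Of 22 cholesterol synthesis genes 1 fell and 0 rose, against 0.278% of all genes tested that were lower, and 16 fell without the day 0 knockout libraries, against 3.2%. All 22 differences were below 0, with a median of -1.03 on the log2 scale against -0.16 for the wild-type step. Cyp51, lanosterol demethylase, stood at 55.4 and 46.7 TPM at day 4 and at 16.6 and 16.5 TPM at day 8 (-1.62 ± 0.14, adjusted p = 0.0389, edgeR), beside 30.9 and 35.8 TPM in the wild type.

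**Figure D3:**
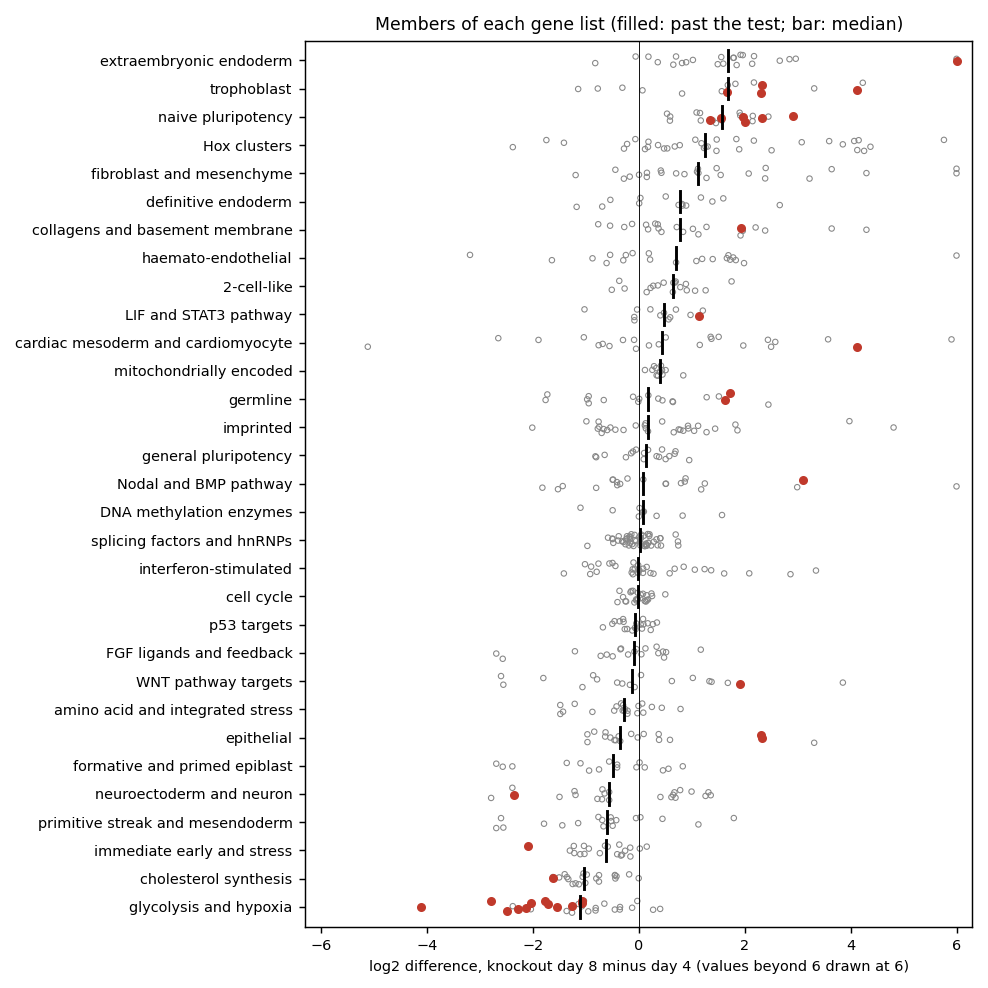
Each row is a gene list and each point a member, placed by its knockout day 8 minus day 4 difference (log2); filled red points passed the edgeR test and the black bar is the list's median. Among the lists drawn, glycolysis and hypoxia (median -1.11) and cholesterol synthesis (-1.03) lie lowest, and extraembryonic endoderm (1.69), trophoblast (1.68) and naive pluripotency (1.56) lie highest. A list of 6 sex-linked genes (median -2.20) is not drawn.

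The 12 largest rises, Prdm14 apart, were of genes outside the pluripotency lists. Afp, alpha-fetoprotein of the yolk sac and fetal liver, had the largest rise among genes past the test with at least 5 CPM and an ordinary gene name, from 0.0899 and 0.112 TPM to 5.41 and 14.5 TPM (6.42 ± 0.58, adjusted p = 0.0401, edgeR), and the wild type went from 0.245 to 24.8. Hand1, a transcription factor gene of trophoblast and of lateral and cardiac mesoderm, rose by 4.12 ± 0.41 (1.48 and 1.98 TPM, then 14.7 and 57.7; adjusted p = 0.0428, edgeR). In the wild type it went from 10.4 to 239 TPM. Bmp4, a ligand that acts on mesoderm and extraembryonic fates, rose from 8.57 and 5.23 TPM to 48.0 and 59.6 TPM. Krt8 and Krt18, the partner keratins of simple epithelia, rose by 2.33 (101 and 187 TPM, then 483 and 976) and by 2.31 (149 and 174 TPM, then 610 and 1059).

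Hand1, Krt8, Krt18 and Tead4 are the 4 of 15 tested trophoblast genes that rose, and 0 fell, against 0.327% higher and 0.278% lower among all genes tested. The median of the list was 1.68. Of the 15, 9 rose and 1 fell without the day 0 knockout libraries, against 3.06% and 3.2% of all genes. Without the line term 1 rose, against 41 of all 24794 genes. As background, none of the 4 is expressed in trophoblast alone; Krt8 and Krt18 are also in the epithelial list and Hand1 in the cardiac list. The summed level of the list was 434 and 626 TPM at day 4 and 1512 and 3110 TPM at day 8, mostly keratin. In the wild type it was 1401 TPM at day 4 and 3668 TPM at day 8, above both knockout lines at each day. Of the more specific markers, Gcm1 was at 0.517 and 1.10 TPM at day 8, Elf5 at 0.326 and 0.409 and Cdx2 at 1.77 and 4.69, and 4 placental genes (Tpbpa, Prl3d1, Ctsq and Psg21) had too few counts to be tested.

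Of 24 extraembryonic endoderm genes Afp alone rose and 0 fell, against 0.327% higher and 0.278% lower among all genes tested. The median of the list was 1.69. Without the day 0 knockout libraries 8 rose and 1 fell, against 3.06% and 3.2% of all genes. Ttr, a transport protein gene of yolk sac and liver, went from 1.65 and 1.01 TPM to 7.39 and 13.8 TPM without passing. The transcription factor genes of this lineage were spread between lines. Gata6 had 6.46 (G6) and 1.13 (H8) TPM at day 4 and 9.19 and 6.79 at day 8, Sox17 had 8.85 and 0.462 TPM and then 9.32 and 5.47, and Gata4 had 16.5 and 4.70 TPM and then 13.5 and 15.7. At day 4 each was higher in G6 than in H8, and the wild type had 27.7, 15.0 and 9.28 TPM of Gata6, Sox17 and Gata4. The level of the whole list was 1603 and 1169 TPM at day 4 and 1975 and 1680 TPM at day 8, against 763 and 4416 TPM in the wild type. A bulk library cannot tell more cells of a type from more RNA per cell, here or in any result above.

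Other rises among the largest were those of Anxa1, a phospholipid-binding annexin gene (4.71 and 4.83 TPM, then 74.1 and 120), and of Xaf1, an apoptosis-linked interferon-responsive gene (1.86 and 2.62 TPM, then 18.7 and 28.8). Xaf1 rose by 3.41 ± 0.17 on the log2 scale (adjusted p = 0.024, edgeR), while the wild type held 4.63 and 3.74 TPM. Capn6, Emp1, Cryab, Rhox6 and Tcim rose by 2.97 to 4.29. All 7 of these genes had day 8 values above both day 4 values in each line. The levels of Anxa1, Emp1 and Xaf1 in the day 0 knockout cells (36.0 and 35.2, 35.5 and 23.4, and 37.4 and 44.4 TPM) were also above the day 4 values.

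Single members of signalling lists rose. Beside the counts in this paragraph, 0.327% of all genes tested were higher and 0.278% lower. Without the day 0 knockout libraries these shares were 3.06% and 3.2%. Lifr, the LIF receptor gene, rose by 1.13 (9.08 and 7.65 TPM, then 17.0 and 18.4), 1 of 13 LIF and STAT3 pathway genes (3 higher and 1 lower without the day 0 knockout libraries). Sfrp1, a secreted WNT antagonist gene, rose by 1.91 (8.37 and 7.84 TPM, then 28.7 and 32.3), 1 of 18 WNT pathway genes (3 higher and 4 lower without those libraries). Nid1 (nidogen), a basement membrane gene, rose by 1.93 in the knockout, 1 of 22 in its list (7 higher and 1 lower without them), beside a wild-type step of 4.04. Of 19 germline genes Dazl and Kit rose, by 1.72 and by 1.63, and 0 fell. In the fit without the day 0 knockout libraries 4 germline genes rose and 4 fell, so the list had no single direction. Without the line term 0 germline genes passed, against 77 of all 24794 genes. Among the falls, Ier3 was the 1 of 20 immediate early and stress genes to pass (-2.08), and 6 fell and 0 rose without the day 0 knockout libraries. Nes, the intermediate filament gene of neural progenitors, was the 1 of 22 neural genes to pass (-2.35), and 6 fell and 1 rose without those libraries.

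Markers of the primitive streak did not pass in either direction (0 of 18, against 0.605% of all genes tested). Without the day 0 knockout libraries 1 was higher and 4 lower, against 3.06% and 3.2% of all genes. T stood at 30.7 (G6) and 78.5 (H8) TPM at day 4 and at 7.85 and 9.34 TPM at day 8 (-2.60 ± 0.76, adjusted p = 0.217, edgeR), and the wild type went from 853 to 8.08 TPM. Mixl1 had 0.935 and 9.56 TPM at day 4 against 256 in the wild type, and Eomes 20.1 and 27.6 against 253. Wnt8a, a WNT ligand gene of the streak that is not in the list, fell from 15.1 and 26.4 TPM to 1.84 and 2.12 TPM (-3.32 ± 0.28, adjusted p = 0.0389, edgeR), and in the wild type the level went from 55.6 to 0.648. Of the NODAL pathway genes, Nodal had 43.2 and 98.4 TPM and then 33.9 and 61.2. Lefty1 had 153 and 207 TPM and then 75.2 and 48.5, and Lefty2 120 and 126 and then 82.1 and 88.0. None of these passed the test. In the wild type Nodal went from 145 to 18.4 TPM, Lefty1 from 205 to 17.7 TPM and Lefty2 from 154 to 28.3 TPM.

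Differentiated derivatives stayed low in the knockout at day 8 where the wild-type library held them. The 24 cardiac genes together held 44.7 and 32.3 TPM at day 4 and 54.0 and 125 TPM at day 8, against 70.8 and 823 TPM in the wild type. Tnnt2, cardiac troponin T, had 1.51 and 2.14 TPM at day 8, against 72.5 in the wild type. Hbb-bh1, an embryonic globin gene, was listed at 0 in both knockout lines at day 4 and in G6 at day 8, with 2.61 TPM in H8 at day 8 and 462 in the wild type. Kdr had 1.29 and 4.96 TPM against 93.0, Cdh5 0.591 and 0.918 against 35.2, and Col1a1 1.74 and 12.2 against 105. In the cardiac list Hand1 alone rose, and 0 of 21 haemato-endothelial genes passed, against 0.327% higher and 0.278% lower among all genes tested. Without the day 0 knockout libraries 8 cardiac and 7 haemato-endothelial genes rose and 1 of each fell (3.06% and 3.2% of all genes). The haemato-endothelial list together held 106 and 85.3 TPM at day 4 and 108 and 115 TPM at day 8, against 119 and 977 TPM in the wild type. Foxa2 had 5.15 and 1.38 TPM at day 8, against 23.8 in the wild type. Pax6 (1.33 and 1.22 TPM) and Sox1 (0.470 and 1.06) were low in the knockout and also in the wild type (0.923 and 0.150). The day 8 knockout libraries, labelled as embryoid bodies, thus held Tnnt2, Hbb-bh1, Cdh5 and Kdr, markers of heart, blood and vessel, at 0 to 4.96 TPM, while Hand1 of the cardiac list stood at 14.7 and 57.7 TPM.

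**Figure D4:**
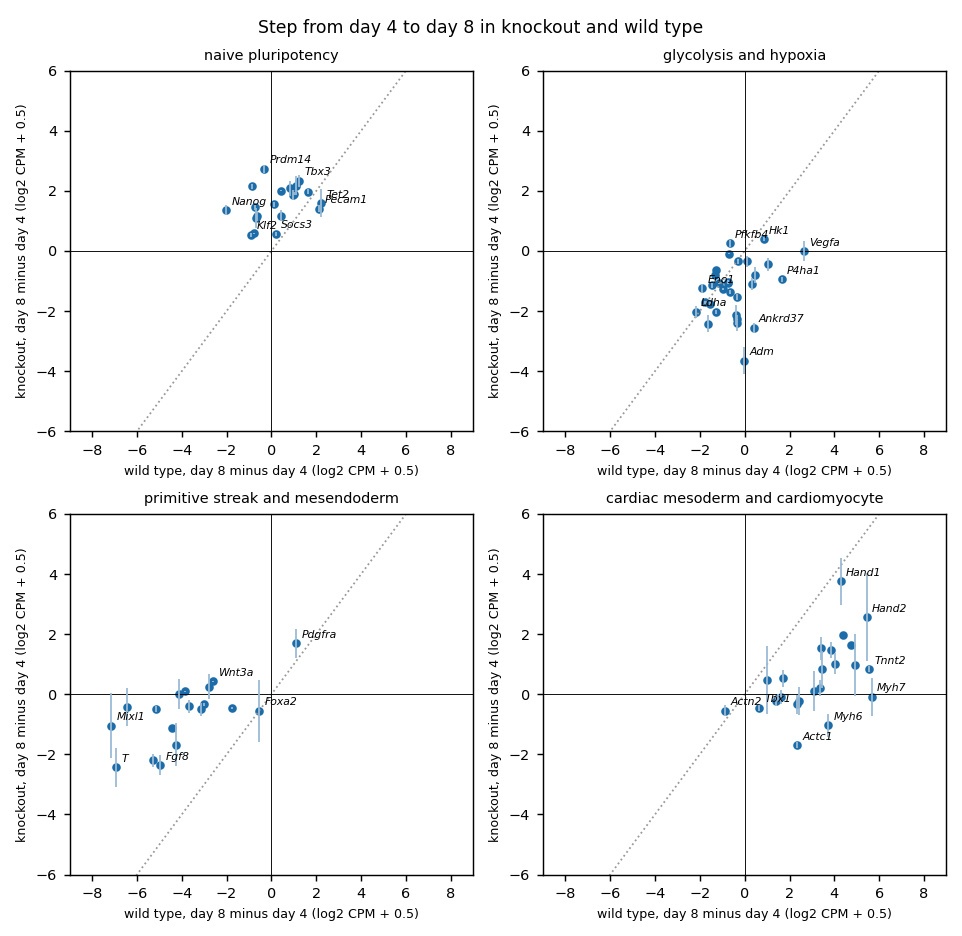
Day 8 minus day 4 difference (log2 CPM + 0.5) in the wild type, 1 library a day (horizontal), against the mean of the knockout lines (vertical), for members of 4 lists; light bars span G6 and H8, and the dotted line marks equal steps. Naive genes lie above 0 in the knockout on both sides of 0 in the wild type, 28 of 30 hypoxia genes lie below 0 in the knockout, and streak and cardiac genes spread much wider along the wild-type axis, with T at -6.92 and Tnnt2 at 5.57.

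Many of the knockout changes had the same direction in the wild type. Of the 81 genes that rose, 72 were higher at day 8 in the wild type too (88.9%, against 48.7% of all genes tested), and of the 69 that fell, 58 were lower (84.1%, against 48.9%). The wild-type step rests on 1 library a day and shares no library with the knockout step. A test of the difference between the 2 steps (interaction) called 0 of 24794 genes (0%); its smallest adjusted p was 0.102 by edgeR, and 4495 genes had an unadjusted p under 0.05. DESeq2 called 2030 genes and limma-voom 2, and edgeR without the day 0 knockout libraries called 799 (3.29%). This fit assumes that the lone wild-type library varies like the knockout libraries. Without the day 0 knockout libraries it leaves 1 residual degree of freedom for the spread.

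In that fit without the day 0 knockout libraries, the knockout step of Nanog exceeded the wild-type step by 3.41 ± 0.22 on the log2 scale and that of Pou5f1 by 2.73 ± 0.22 (adjusted p = 0.0386 for both, edgeR). Prdm14 (3.30 ± 0.30), Zfp42 (1.6 ± 0.16), Esrrb (1.44 ± 0.19) and Sox2 (1.22 ± 0.16) passed there in the same direction. The naive genes Tbx3 and Klf4 did not pass there. For the hypoxia genes Bnip3 (-1.93 ± 0.16), Adm (-4.09 ± 0.55) and Stc1 (-6.23 ± 0.62) the knockout step was the lower. Differentiation genes passed in both directions: T (4.54 ± 0.60) and Wnt8a (3.29 ± 0.40), which went down further in the wild type, and Tnnt2 (-5.23 ± 0.43) and Nid1 (-2.10 ± 0.26), which went up further there. Tfcp2l1 (adjusted p = 0.24, edgeR), Pgk1 (0.432) and Hand1 (0.857) did not pass in that fit. The wild-type cells also carried Y-linked messages that were at or near 0 in the knockout lines: Eif2s3y stood at 82.2 and 134 TPM in the wild type at day 4 and day 8, and at 0.0533, 0.0165, 0 and 0 in the knockout. The part of that difference in these contrasts was not tested.

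Splicing factors and hnRNPs (0 of 54), cell cycle genes (0 of 25) and p53 targets (0 of 20) had no member past the test. Of all genes tested 0.605% passed, so a count of 0 does not set lists of this size apart. Their medians were 0.02, -0.02 and -0.06. Without the day 0 knockout libraries 1 p53 target fell, against 3.2% of all genes, and no member of the other lists passed. Mitochondrially encoded genes did not pass either, and without the day 0 knockout libraries 1 of 13 was higher, against 3.06% of all genes. The share of counts on all genes with mitochondrial (mt-) names was 2.59% and 2.66% at day 4 and 3.41% and 3.41% at day 8. In the wild type that share was 2.39% at day 4 and 2.86% at day 8. All 13 genes of the list had knockout differences above 0, with a median of 0.40, beside a median wild-type step of 0.41. The part of this shift in the other results was not tested.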

How the data were processed

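PolyA+ RNA libraries were made with a standard Illumina protocol, per the labels. The submitters' processing notes name HISAT2 2.0.5, StringTie 1.3.3b and mm10; what each did, with which options and gene models, and whether strand was used are not given in the sources used here. Each library has read counts per gene as whole numbers, deposited unscaled, and TPM per gene, also deposited by the authors. In each library 259 entries without a gene name (0.0242% to 0.0398% of counts) were left out. Gene coordinates and types are from GENCODE M21 and promoters from RefSeq (GRCm38.p6).

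At least 2 libraries had to reach a CPM of 0.0791, which is 10 counts in the median library. The deposited counts were scaled by TMM and tested with edgeR 4.0.16 (limma 3.58.1, R 4.3.3), two-sided, with a mean for each of 6 groups and a term for the knockout line, over all 9 libraries (residual degrees of freedom 2, prior 3.29, biological coefficient of variation 0.303). SE is the log2 difference divided by the square root of F. Steps in single lines are differences in log2(CPM + 0.5). Libraries were paired by the line in their titles: H8 minus G6 deviations correlated across days (Pearson 0.474 for days 4 and 8, 0.235 for 0 and 4, 0.207 for 0 and 8, over 11930 genes). DESeq2 1.42.0, limma-voom, limma on log2(TPM + 1) and log2(TPM + 0.1), other scalings and filters and sets of libraries were alternatives, and the procedure was tested on simulated data.

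The genes named by rule were 42 chosen genes, the 12 largest rises and 12 largest falls past the test with at least 5 CPM, 1 sign in both lines and an ordinary gene name, and up to 4 members past the test in each list; 26 others were named after their values were seen. The members, lists and tests were chosen with earlier results of these data known. Of 104 such genes 48 overlap another annotated gene, and their counts are uncertain, as are those of close paralogs; 1 gene that the rule names is not reported here. Reads carry no molecular identifiers.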

Additional observations from a re-analysis of the deposited data

Results flagged for a closer look

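For 9 named genes the step from day 4 to day 8 had opposite signs in the 2 knockout lines; with 1 pair of libraries per line these differences were not tested. In log2(CPM + 0.5), G6 then H8, the steps were -0.67 and 1.62 for Gata4, 0.47 and -1.58 for Foxa2, -0.75 and 1.5 for Cdh2 and 0.027 and -2.13 for Mixl1. Smaller ones were -0.33 and 0.43 for Dnmt3a, -0.35 and 0.32 for Vegfa, 0.14 and -0.23 for Pou5f1, 0.015 and -0.26 for Hnrnpl and -0.082 and 0.12 for Hnrnpll.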

How the results depend on the processing

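The counts of called genes (150, with 81 higher and 69 lower) depended on the libraries that set the spread and on the test. None of the 63 named calls reversed under any alternative run. Both lines moved the same way for each, and the runs reuse the same libraries, so a kept direction is not independent evidence. Without the replicate block (the line term) 77 passed (41 higher, 36 lower), and 32 of the 63 named calls were kept. All 63 were kept with RLE scaling, DESeq2, limma-voom, protein-coding genes only and without the day 0 knockout or wild-type libraries, 50 with total count scaling (51 genes higher), 15 with log2(TPM + 1), 25 with log2(TPM + 0.1) and 0 with no filter on low counts. The counts were 0 (0 and 0; 3604 at an unadjusted p under 0.05) with no filter, 1949 (986, 963) with DESeq2, 758 (363, 395) with limma-voom, 28 (16, 12) with log2(TPM + 1), 40 (21, 19) with log2(TPM + 0.1), 1520 (743, 777) without the day 0 knockout libraries, 2215 (1075, 1140) with only the 4 libraries compared and 253 (135, 118) with protein-coding genes. Leaving out 1 library gave 0 to 1760 (0 to 885 higher, 0 to 875 lower), and the named calls kept were 0 without either day 4 knockout library, 18 without the day 8 G6 and 3 without the day 8 H8 library, where the lone library of a group is assumed to vary like the others. The interaction had 0 calls, 2030 with DESeq2, 2 with limma-voom, 126 with log2(TPM + 1), 1 with log2(TPM + 0.1), 799 without the day 0 knockout libraries and 0 to 1206 leaving out 1 library. The causes were not tested.

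Genes that did not pass changed sign as follows. Dnmt3a was at -0.020 without the replicate block, -0.11 with log2(TPM + 1) and -0.12 with log2(TPM + 0.1), and Vegfa at 0.0088 and 0.0086 with those TPM scales. Leaving out 1 library gave values on both sides of 0 for Dnmt3a (-0.44 to 0.55), Vegfa (-0.36 to 0.33), Hnrnpll (-0.17 to 0.22), Pou5f1 (-0.22 to 0.12), Mixl1 (-2.69 to 0.51), Gata4 (-0.43 to 1.39), Foxa2 (-1.65 to 0.33) and Cdh2 (-0.83 to 1.59). With 2 libraries a day and 2 residual degrees of freedom, a gene that missed the threshold is not shown to be alike at both days. Depth limits the genes near 0 at day 4: the fold of Afp rests on 13 and 18 counts there, and Hbb-bh1 had 0.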

Other observations

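The messages of 4 genes known from neurons fell in the knockout from day 4 to day 8; they were chosen after their values were seen. In the neural list 1 of 22 genes fell, against 0.278% of all genes tested. The median difference was -0.56, and 10 of the 22 differences were above 0. Without the day 0 knockout libraries 6 fell and 1 rose, against 3.2% and 3.06% of all genes. The summed level of the list was 604 and 527 TPM at day 4 and 699 and 576 TPM at day 8. Kif1a, a motor of synaptic vesicle precursors, had 91.5 (G6) and 90.2 (H8) TPM on day 4 and 14.5 and 14 TPM at day 8 (-2.70 ± 0.14, adjusted p = 0.024, edgeR), with 2.79 and 2.25 TPM in the day 0 knockout cells. Sncb (beta-synuclein) went from 15.6 and 11.8 TPM to 0.539 and 0.947, Nrcam, a neuronal adhesion molecule gene, from 7.92 and 5.99 TPM to 1.01 and 1.14, and Gad1, which makes GABA, from 3.49 and 3.84 TPM to 0.405 and 0.516. All 4 passed the test, and all were lower at day 8 in the wild type too (Kif1a 48.5 then 24.7 TPM). Sox3, a neural and epiblast factor gene, did not pass (13.3 and 14.6 TPM, then 3.25 and 2.22; adjusted p = 0.0617, edgeR). By rule, Trim67, Kcnq3, Ppp4r4, Espn, Epha8 and Cnn1 were also among the largest falls, by 2.88 to 3.27 (-3.27 for Trim67 and -2.88 for Epha8).

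Of the X-linked Rhox homeobox genes, Rhox6 rose from 2.84 and 1.57 TPM to 25 and 24.8, and Rhox9, chosen after its values were seen, from 2.78 and 1.97 TPM to 17.6 and 18.7. Trap1a (71.0 and 40.8 TPM, then 193 and 128) and Wnt7b (1.62 and 2.49 TPM, then 8.80 and 17.5) rose as well. Both were chosen after their values were seen.

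Ifitm2 and the predicted gene Gm45717, chosen likewise, overlap in the annotation, and whether reads were divided between them was not tested. Ifitm2 stood at 123 and 131 TPM at day 4 and at 560 and 692 at day 8 (2.30 ± 0.14, adjusted p = 0.024, edgeR), with 869 and 803 TPM in the day 0 knockout cells and 109 and 150 TPM in the wild type at day 4 and day 8. Gm45717 was high where Ifitm2 was low. It had 306 and 350 TPM in the day 4 knockout libraries, 0.334 and 0.985 in those of day 8 and 0.739 and 0.198 in those of day 0, while all 3 wild-type libraries held 287 to 418 TPM (adjusted p = 0.024, edgeR).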
